A study of Mus musculus with 6 samples.

Results

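Bulk RNA-seq libraries of mouse tail tendon were read for 9 genes that are used to mark tendon cells and tendon progenitors: *Tnmd*, *Tppp3*, *Prg4*, *Ly6a*, *Cd34*, *Thy1*, *Nes*, *Itm2a* and *Lgals3*. They were taken as a named list, chosen with earlier results of these data known, and make up 9 of the 44788 gene symbols counted. The mice were 3 weeks old by the labels, although the study's text gives another age, and all were C57BL/6. One group of 3 libraries came from WT mice and the other group of 3 from *Mkx*-/- mice, in which the gene of the tendon transcription factor Mohawk is knocked out and which serve in the study as a model of heterotopic ossification, the growth of bone in soft tissue. The sex of the mice and whether a library held 1 mouse or several are not stated, so p-values measure the spread between libraries.

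The list joins genes of different kinds. Tendons are built by elongated tenocytes lying in rows between collagen fibres, and a looser sheath of fibroblast-like cells wraps the bundles. Stem and progenitor cells have been isolated from both places, and are usually recognised by combinations of surface proteins and intracellular markers because no single gene defines them. *Tnmd* (tenomodulin), *Ly6a* (Sca-1), *Cd34*, *Thy1* (CD90) and *Itm2a* encode proteins of the cell surface or other membranes. *Tppp3* encodes a tubulin-binding protein of the cytoplasm, *Nes* (nestin) an intermediate filament protein, *Prg4* (lubricin) a secreted lubricant of gliding surfaces, and *Lgals3* (galectin-3) a sugar-binding protein found inside and outside cells. Not all of these markers are therefore surface proteins.

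The libraries held 10835070 to 14160301 counts, of which the 9 genes took 0.265% to 0.331%. The lowest count of any of them in any library was 348, a counting error of 5.36%, while the coefficient of variation within a group ran from 7.91% to 38.1%. Levels are given as normalized CPM, counts relative to library size after scaling of the libraries to each other by edgeR's TMM method. The tendon genes *Scx*, *Kera*, *Fmod*, *Thbs4* and *Col1a1* were detected in every library, with the lowest, *Scx*, at 13.3 to 53.4 CPM. *Mkx* itself had 1381 to 1825 counts in WT and 491 to 620 in *Mkx*-/- libraries, and the counts do not show which of its exons these came from. Only WT replicate 3 held counts of *Ddx3y*, a gene of the Y chromosome (301, against 0 in every other library). *Xist*, a gene expressed in female cells, had 1 count there and 1289 to 1866 in the other libraries. By these counts WT replicate 3 was male and the other libraries, with all of *Mkx*-/-, were female. Sex was thus uneven between the groups for all 9 genes, and *Tnmd* and *Itm2a* also lie on the X chromosome. The comparison without WT replicate 3, given below, holds only libraries that were female by these counts. Abundant transcripts also differed: *Col1a1*, *Col1a2* and *Sparc* took 42.0% to 48.5% of WT counts and 28.3% to 34.8% of *Mkx*-/- counts.

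*Itm2a* and *Lgals3* were the markers with the largest rise, and *Tnmd* had the smallest difference of the 9. To show what the genome holds at their starts, the 250 bases before the transcription start are printed below, 5′ to 3′ on the strand of the gene, from a RefSeq promoter table of GRCm38.p6. The table held 5 of the 9 genes (*Tnmd*, *Itm2a*, *Lgals3*, *Cd34* and *Nes*), and each window was placed in mm9 by an exact match to 1 site. The windows lie at chr14:47993285-47993534 (plus strand) for *Lgals3*, chrX:104598700-104598949 (minus strand) for *Itm2a* and chrX:130385297-130385546 (plus strand) for *Tnmd*. The RefSeq start of *Lgals3* lies 6109 bases inside the gene's GENCODE span, so that window belongs to an inner start. Capitals mark the E-box, CANNTG, the letters read by basic helix-loop-helix factors such as Scleraxis.
Lgals3: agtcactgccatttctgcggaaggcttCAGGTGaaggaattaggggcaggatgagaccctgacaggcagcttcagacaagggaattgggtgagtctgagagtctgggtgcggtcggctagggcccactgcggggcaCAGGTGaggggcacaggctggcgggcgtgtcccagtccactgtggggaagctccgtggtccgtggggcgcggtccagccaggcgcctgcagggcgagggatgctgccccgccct
Itm2a: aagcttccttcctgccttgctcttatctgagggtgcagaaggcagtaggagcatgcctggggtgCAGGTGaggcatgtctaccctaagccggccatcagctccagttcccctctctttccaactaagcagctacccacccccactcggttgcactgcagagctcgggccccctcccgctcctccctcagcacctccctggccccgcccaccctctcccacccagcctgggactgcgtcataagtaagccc
Tnmd: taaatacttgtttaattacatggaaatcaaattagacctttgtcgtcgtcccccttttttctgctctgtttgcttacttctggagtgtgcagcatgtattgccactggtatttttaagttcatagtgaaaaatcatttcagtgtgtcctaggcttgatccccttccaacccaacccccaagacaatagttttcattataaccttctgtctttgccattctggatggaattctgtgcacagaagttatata

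Searched on both strands, the *Lgals3* window held an E-box 223 bases and another 114 bases before the start, the *Itm2a* window held 1 at 186 bases, and the windows of *Tnmd*, *Cd34* and *Nes* held none. All of the E-boxes found read CAGGTG, a form looked for after the matches were seen. CANNTG occurred in 66% of 27025 mouse promoter windows of this length and CAGGTG in 17.1%. The letters TGACAG, a core recognised by homeodomain proteins of the TALE class to which Mohawk belongs, occurred once, in the *Lgals3* window at 191 bases, and in 16% of all windows. Of the other elements, a GC box (GGGCGG) was found in the windows of *Lgals3*, *Itm2a* and *Nes* (32.9% of all windows) and a CCAAT box in that of *Lgals3* (34.5%). TATAAA, in 13% of all windows, was in none of the 5. G and C made up 66% of the *Lgals3* window, 62.8% of the *Itm2a* window and 38.4% of the *Tnmd* window, against a median of 52% over all windows. These are matches of letters, and no binding was measured.

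All 9 genes passed the filter on low counts. The fitted level was higher in *Mkx*-/- tendons for 7 and lower for 2, and their median log2 fold change was 0.83, against a median of -0.0037 and 49.5% of genes higher over all 14550 genes tested. By the quasi-likelihood test of edgeR, with p adjusted by Benjamini and Hochberg's method over all genes, 4 markers rose at an adjusted p under 0.05 (*Tppp3*, *Ly6a*, *Itm2a* and *Lgals3*) and 1 fell (*Prg4*), where 3.18% of all genes rose and 2.26% fell. Asking also for a log2 fold change beyond 1, the threshold the study used, left *Itm2a* and *Lgals3* called higher and *Prg4* called lower, where 1.89% of all genes were called higher and 1.33% lower. The 3 *Mkx*-/- libraries lay wholly above the 3 WT libraries in 5 markers and wholly below them in 1, as they did in 14.6% and 13.6% of all genes. *Tnmd*, *Thy1* and *Nes* overlapped between the groups. Because bulk RNA was measured, fewer cells of a type and less RNA per cell cannot be told apart.

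**Figure D1:**
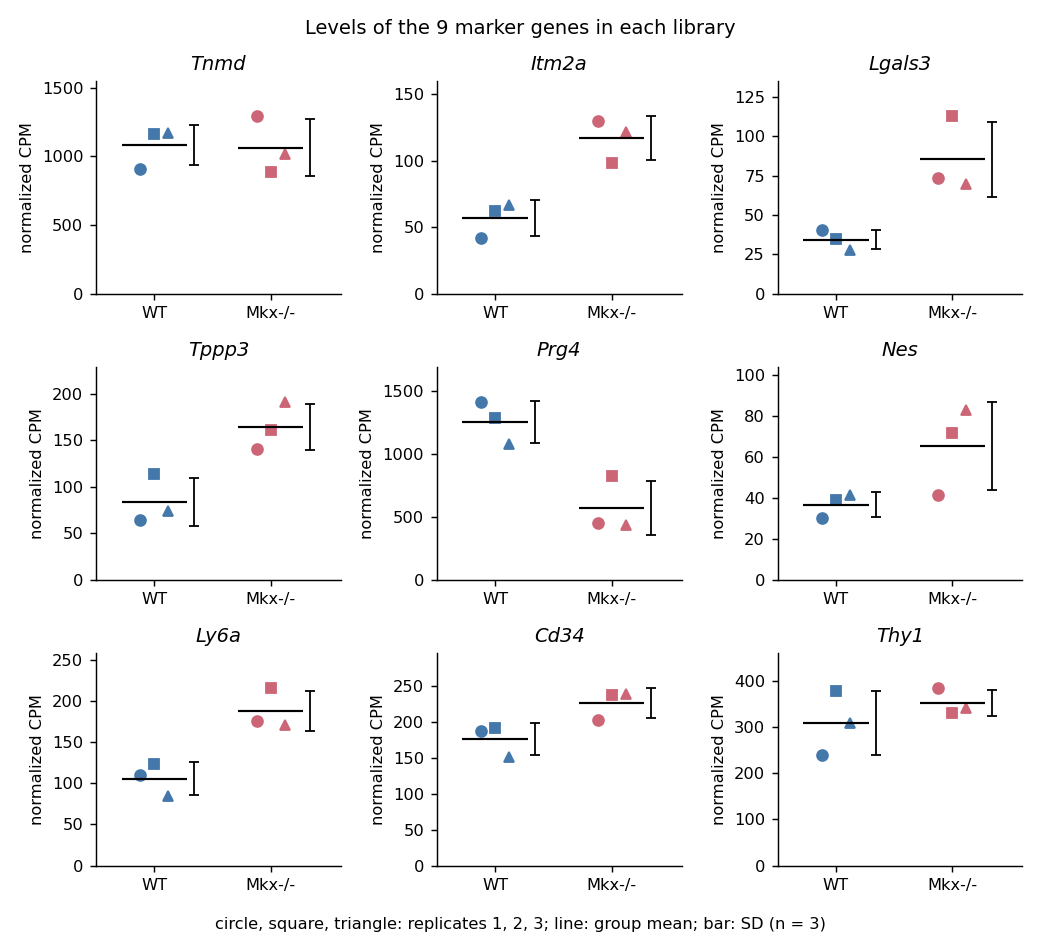
Normalized CPM (vertical axes, from 0) of the 9 genes in each WT and Mkx-/- library, with circles, squares and triangles for replicates 1, 2 and 3, a line at the group mean and a bar of 1 SD (n = 3). All Mkx-/- points lie above all WT points for Itm2a, Lgals3, Tppp3, Ly6a and Cd34 and below them for Prg4, and the groups overlap for Tnmd, Nes and Thy1.

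*Tnmd* encodes a type II membrane protein of mature tenocytes and is the most used marker of the tendon lineage. It spans chromosome X, positions 130385519 to 130400116 (plus strand) in mm9. Its level was 912, 1166 and 1171 CPM in the WT libraries and 1292, 886 and 1016 CPM in the *Mkx*-/- libraries. The highest and the lowest of the 6 values were both from *Mkx*-/- tendons. The WT mean was 1083 ± 148 CPM and the *Mkx*-/- mean 1065 ± 207 CPM (SD, n = 3 each), and the log2 fold change was -0.02, with a standard error of 0.19 and an adjusted p of 0.960 by edgeR. The 95% interval of that change ran from -0.45 to 0.40, unadjusted like the other intervals given here, which leaves room for a modest change either way. Leaving out WT replicate 2, WT replicate 3, *Mkx*-/- replicate 2 or *Mkx*-/- replicate 3 turned the sign, to 0.017, 0.019, 0.092 and 0.0083. Scaling by library size alone also turned it, to 0.23, under which the median of all genes moved to 0.25.

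Of 16 other tenocyte genes (collagens, other matrix genes and transcription factors), all tested, 8 were higher and 8 lower, with a median log2 fold change of 0.038. *Thbs4*, a matrix glycoprotein gene, was called higher (1.27) and *Col11a2*, a minor fibrillar collagen gene, was called lower (-1.72), and DESeq2 called 2 higher and 4 lower. *Col1a2*, encoding a chain of type I collagen, had a log2 fold change of -1.02 and an adjusted p of 0.0933 in edgeR. *Scx*, encoding Scleraxis, was at 17.3, 40.2 and 53.4 CPM in WT against 19.4, 13.3 and 17.5 CPM in *Mkx*-/- libraries, so the groups overlapped. Tenocyte genes thus lay on both sides of *Tnmd*. *Lect1* (chondromodulin), the closest relative of *Tnmd* and a cartilage gene, was near the limit of use, at 0.39 to 1.02 CPM in WT against 0.73 to 2.11 CPM in *Mkx*-/- libraries (adjusted p = 0.354 by edgeR).

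*Itm2a* encodes a type II membrane protein with a BRICHOS domain, a fold that tenomodulin also carries. It spans chromosome X, positions 104592438 to 104598715 (minus strand). Its level was 41.8, 62.2 and 66.6 CPM in WT and 130, 98.6 and 122 CPM in *Mkx*-/- libraries, and the lowest *Mkx*-/- library stood above the highest WT library. The means were 56.9 ± 13.3 and 117 ± 16.4 CPM (SD, n = 3 each), a 2.05-fold rise, and the log2 fold change was 1.04, with a standard error of 0.20 and an adjusted p of 0.0232 by edgeR. The adjusted p stayed under 0.05 without WT replicate 1 (0.0153) or *Mkx*-/- replicate 2 (0.0388), but without WT replicate 1 the log2 fold change was 0.86, under the fold threshold. The adjusted p was above 0.05 without WT replicate 2 (edgeR adjusted p = 0.0792), WT replicate 3 (0.0570), *Mkx*-/- replicate 1 (0.0671) or *Mkx*-/- replicate 3 (0.0749). In those fits the log2 fold change stayed between 0.93 and 1.15. WT replicate 3, the library with Y-linked counts, held the highest WT value, and without it the fold change was 1.15 on the log2 scale.

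The relatives of *Itm2a* gave smaller differences. *Itm2b*, a widely used member of the family, was at 435 ± 7.56 and 470 ± 19.8 CPM (SD, n = 3), and the log2 fold change was 0.11 (95% interval -0.16 to 0.38, adjusted p = 0.625 by edgeR). *Itm2c*, the member best known from the brain, differed by -0.041 on the log2 scale (95% interval -0.38 to 0.29, edgeR adjusted p = 0.904). The intervals of both lay below that of *Itm2a*, 0.59 to 1.49, although the differences between genes were not tested. Skeletal muscle also expresses *Itm2a*. The summed level of 15 skeletal muscle genes was 99.4 to 397 CPM in WT and 557 to 2751 CPM in *Mkx*-/- libraries, with 14 of the 15 higher, 3 called higher (*Tnnc2*, *Tnni2* and *Tnnt3*) and *Mkx*-/- replicate 1 highest, as it was for *Itm2a*, and their part in the result was not tested. In *Mkx*-/- replicates 1, 2 and 3 the muscle sum was 2751, 1328 and 557 CPM, and *Itm2a* was at 130, 98.6 and 122 CPM. How much *Itm2a* RNA muscle would add was not measured.

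*Lgals3* showed the largest rise of the 9. Galectin-3 binds beta-galactosides and is known from macrophages, epithelia and cartilage. The gene spans chromosome 14, positions 47987426 to 48005835 (plus strand). Its level was 40.3, 34.7 and 27.9 CPM in WT and 73.8, 113 and 69.8 CPM in *Mkx*-/- libraries. All *Mkx*-/- values were above all WT values, with *Mkx*-/- replicate 2 the highest. The means were 34.3 ± 6.24 and 85.4 ± 23.7 CPM (SD, n = 3 each), a 2.49-fold rise, and the log2 fold change was 1.32, with a standard error of 0.22, a 95% interval of 0.82 to 1.81 and an adjusted p of 0.0151 by edgeR. The adjusted p went above 0.05 only without WT replicate 2 (0.0718) or WT replicate 3 (0.0680), with log2 fold changes of 1.31 and 1.17.

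Macrophages are a usual source of galectin-3, and their marker genes had lower fitted levels in *Mkx*-/- tendons. Of 13 tested macrophage and leukocyte genes 13 had a lower fitted level, with a median log2 fold change of -0.54, and in 11 the groups did not overlap, where 13.6% of all genes lay wholly lower. *Emr1* (F4/80) and *Mrc1* (the mannose receptor) were called lower, with log2 fold changes of -1.09 and -1.14, and *Csf1r*, the receptor of a macrophage growth factor, fell by 0.63 on the log2 scale (edgeR adjusted p = 0.0173). The summed level of the list was 633 to 685 CPM in WT and 410 to 504 CPM in *Mkx*-/- libraries. Within single libraries, *Lgals3* gave 0.147, 0.142 and 0.123 counts per count of the macrophage lysozyme gene *Lyz2* in WT and 0.504, 0.570 and 0.427 in *Mkx*-/- tendons, a ratio 3.64 times higher on average. The part of macrophages in the *Lgals3* result was not tested. T cell genes were near absent, with no count above 4, and *Cd3e* and *Cd3d* had 0 in every library.

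Among the other galectin genes tested, *Lgals9* was the only one to pass. *Lgals1*, the galectin gene of mesenchymal cells, was at 166 ± 46.0 and 219 ± 37.2 CPM (SD, n = 3), and the log2 fold change was 0.40 (adjusted p = 0.336 by edgeR), with overlapping groups. *Lgals9* rose by 0.72 (edgeR adjusted p = 0.0202), with 24.4 to 31.3 CPM in WT against 43.9 to 48.5 CPM in *Mkx*-/- libraries. *Lgals7* reached 1.40 on the log2 scale but stayed between 0.079 and 2.38 CPM, with an adjusted p of 0.223 by edgeR. *Lgals4* and *Lgals8* differed by -0.079 and -0.17 on the log2 scale, with adjusted p of 0.914 and 0.529 by edgeR. Cartilage genes, which mark another tissue where galectin-3 is known, included 8 tested, with *Acan* (2.20), *Ucma* (3.47) and *Matn3* (1.45) called higher and *Col2a1* at -0.084 with overlapping groups. The part of such cells in the *Lgals3* result was not tested.

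*Tppp3* and *Prg4*, both used to mark the sheath and lining of tendon, moved in opposite directions. *Tppp3* spans chromosome 8, positions 107991393 to 107995322 (minus strand). Its level was 63.7, 113 and 74.1 CPM in WT and 141, 161 and 190 CPM in *Mkx*-/- libraries. The groups did not overlap, but WT replicate 2 came close to the lowest *Mkx*-/- library. The means were 83.6 ± 26.0 and 164 ± 25 CPM (SD, n = 3 each), and the log2 fold change was 0.97, with a standard error of 0.22 and an adjusted p of 0.0440 by edgeR. *Tppp3* thus passed the test but not the fold threshold. The adjusted p stayed under 0.05 only without WT replicate 2 (0.0259) when single libraries were left out. It was 0.0533 without WT replicate 1, 0.147 without WT replicate 3, and 0.0671, 0.108 and 0.140 without *Mkx*-/- replicates 1, 2 and 3, with log2 fold changes of 0.81 to 1.24 over all 6. *Tppp*, its relative known from oligodendrocytes, was near the limit of use at 1.94 ± 0.549 and 2.54 ± 0.878 CPM (SD, n = 3), with an edgeR adjusted p of 0.557.

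*Prg4* spans chromosome 1, positions 152296542 to 152313295 (minus strand). Its level was 1410, 1283 and 1078 CPM in WT and 454, 820 and 435 CPM in *Mkx*-/- libraries. Every *Mkx*-/- library was below every WT library, with *Mkx*-/- replicate 2 nearer to WT than the other two. The means were 1257 ± 167 and 570 ± 217 CPM (SD, n = 3 each), a level 2.21-fold lower in *Mkx*-/- tendons, and the log2 fold change was -1.14, with a standard error of 0.26, a 95% interval of -1.73 to -0.55 and an adjusted p of 0.0429 by edgeR. Without *Mkx*-/- replicate 2 the log2 fold change was -1.50 (edgeR adjusted p = 0.0117). Leaving out any other library took the adjusted p past 0.05, to 0.0551, 0.120 and 0.0959 without WT replicates 1, 2 and 3 and to 0.106 and 0.136 without *Mkx*-/- replicates 1 and 3. With library sizes alone as the scaling the log2 fold change was -0.89 (edgeR adjusted p = 0.0694).

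The gene *Tpr* overlaps *Prg4* on the opposite strand, and 3.84% of the 50-base windows of *Prg4* exons also occur in *Tpr*. How the counting treated strand is not given in the sources used here. *Tpr* was at 76.6 ± 7.46 CPM in WT against 67.7 ± 4.33 CPM in *Mkx*-/- tendons (SD, n = 3), far under the level of *Prg4*. Within single libraries there were 22.1, 11.4 and 14.5 *Prg4* counts per *Tppp3* count in WT and 3.23, 5.09 and 2.28 in *Mkx*-/- tendons, a ratio 4.53 times lower on average that does not depend on the scaling between libraries. All ratios within libraries given here, among 13 computed, were chosen after the values were seen and were not tested.

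Of 10 tendon sheath and synovial lining genes other than the markers, 8 were higher and 2 lower, with a median log2 fold change of 0.39. *Htra4*, a serine protease gene, and *Cd44*, encoding the hyaluronan receptor, were called higher (4.81 and 1.47), and no gene of the list was called lower. *Htra4* was near the limit of use in WT, at 0.48 to 0.71 CPM against 12.3 to 27.5 CPM in *Mkx*-/- libraries. Its fold size is therefore uncertain, and it drops out under a filter of 10 counts in every library. *Cd55*, a complement regulator used as a marker of synovial lining cells, rose by 0.85 (edgeR adjusted p = 0.0202). *Clu* and *Pcolce2* were the members of the list with a fitted level below WT, at -0.32 and -0.13 on the log2 scale, and both overlapped between the groups. None of the 10 fell at an adjusted p under 0.05, where *Prg4* did, but only 2.26% of all genes fell at that threshold.

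*Ly6a* encodes Sca-1, a small protein held on the membrane by a lipid anchor and used to isolate stem and progenitor cells of many mouse tissues. It spans chromosome 15, positions 74825308 to 74828064 (minus strand). Its level was 110, 124 and 84.2 CPM in WT and 177, 216 and 172 CPM in *Mkx*-/- libraries. The groups did not overlap. The means were 106 ± 20.2 and 188 ± 24.2 CPM (SD, n = 3 each), a 1.78-fold rise, and the log2 fold change was 0.83, with a standard error of 0.17 and an adjusted p of 0.0325 by edgeR. The adjusted p stayed under 0.05 without WT replicate 1 (0.0359), and was 0.0642 and 0.109 without WT replicates 2 and 3 and 0.0698, 0.105 and 0.0704 without *Mkx*-/- replicates 1, 2 and 3, with log2 fold changes between 0.67 and 0.94.

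*Ly6a* sits in a cluster of similar genes, and 4.42% of its 50-base exon windows also occur in *Ly6c2* or *Ly6i*, so its count is uncertain by the reads that such copies could exchange. *Ly6c2* was at 4.26 ± 2.27 and 3.39 ± 0.943 CPM (SD, n = 3), far under the level of *Ly6a*. *Ly6c1*, a marker of endothelium and of some fibroblasts, rose by 0.73 (edgeR adjusted p = 0.0404) and *Ly6e*, expressed in many cell types, by 0.70 (edgeR adjusted p = 0.0322). Within libraries there were 1.22, 1.42 and 1.21 *Ly6a* counts per *Ly6c1* count in WT and 1.52, 1.35 and 1.29 in *Mkx*-/- tendons, and these ranges overlapped.

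*Cd34* encodes a sialomucin of haematopoietic progenitors, endothelial cells and many tissue fibroblasts. It spans chromosome 1, positions 196765015 to 196787486 (plus strand), where the transcript *Gm16897* overlaps it on the other strand. Its level was 187, 191 and 151 CPM in WT and 202, 237 and 239 CPM in *Mkx*-/- libraries. These groups did not overlap, but the gap between WT replicate 2 and *Mkx*-/- replicate 1 was small. The means were 176 ± 22.3 and 226 ± 20.7 CPM (SD, n = 3 each), and the log2 fold change of 0.36, with a 95% interval of 0.033 to 0.68 and a standard error of 0.14, did not pass after adjustment (edgeR adjusted p = 0.181) and passed under none of the alternatives run, where the lowest adjusted p was 0.0580.

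Blood vessels express both *Cd34* and *Ly6a*, and most endothelial genes had higher fitted levels in *Mkx*-/- tendons. Of 15 endothelial genes 13 had a higher fitted level, the median log2 fold change was 0.93, and *Erg*, an endothelial transcription factor gene that cartilage also uses, and *Ecscr*, an endothelial surface gene, were called higher (2.12 and 1.43). DESeq2 called 6. The summed level of the list was 91.1 to 110 CPM in WT and 156 to 238 CPM in *Mkx*-/- libraries, highest in *Mkx*-/- replicate 3. *Pecam1*, encoding CD31, was at 8.88, 9.27 and 27.5 CPM in *Mkx*-/- libraries, while *Cd34* was at 202, 237 and 239 CPM in the same libraries. *Mkx*-/- replicate 3 also stood apart in the 8 tested pericyte and smooth muscle genes (summed level 950 CPM, against 163 to 223 CPM elsewhere, and none called), with *Myh11* at 202 CPM against 1.97 to 2.75 CPM in the other 5 libraries. *Podxl* and *Emcn*, encoding other sialomucins, differed by 1.02 and -0.26 on the log2 scale, with adjusted p of 0.242 and 0.828 by edgeR. The part of vessels in the *Cd34* and *Ly6a* results was not tested.

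*Thy1* encodes CD90, a lipid-anchored glycoprotein of fibroblasts and mesenchymal stem cells. It spans chromosome 9, positions 43851467 to 43856662 (plus strand). Its level was 240, 379 and 309 CPM in WT and 385, 332 and 342 CPM in *Mkx*-/- libraries. WT replicate 2 exceeded the lower *Mkx*-/- libraries, so the groups overlapped. The means were 309 ± 69.7 and 353 ± 27.9 CPM (SD, n = 3 each), and the log2 fold change was 0.19, with a standard error of 0.18 and an adjusted p of 0.579 by edgeR. Omitting WT replicate 1 gave 0.035, omitting WT replicate 2 gave 0.35 and omitting *Mkx*-/- replicate 1 gave 0.10, none of them past the test. The 95% interval, -0.22 to 0.60, leaves out a rise as large as the 2-fold change the study asked for, which is 1 on the log2 scale.

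*Nes* encodes nestin, an intermediate filament protein of neural progenitors that also appears in pericytes, endothelium, immature muscle, Schwann cells and perivascular tendon progenitors. It spans chromosome 3, positions 87775000 to 87784373 (plus strand). Its level was 29.9, 38.9 and 41.3 CPM in WT and 41.3, 71.6 and 82.7 CPM in *Mkx*-/- libraries. *Mkx*-/- replicate 1 fell at the top of the WT range, and the other *Mkx*-/- libraries were above it. The means were 36.7 ± 6.04 and 65.2 ± 21.4 CPM (SD, n = 3 each), and the log2 fold change of 0.83, with a 95% interval of 0.26 to 1.40 and a standard error of 0.25, missed the threshold (edgeR adjusted p = 0.0938). Without *Mkx*-/- replicate 1 the log2 fold change was 1.05 and passed (edgeR adjusted p = 0.0250), and DESeq2 on all 6 libraries gave 0.82 with an adjusted p of 0.0212.

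The libraries with the most *Nes* also had the most of the Schwann cell genes. The summed level of 10 Schwann cell genes was 8159 to 10789 CPM in WT and 12662, 20696 and 23507 CPM in *Mkx*-/- replicates 1, 2 and 3. All 10 had a higher fitted level, in 7 the groups did not overlap (14.6% of all genes lay wholly higher), the median log2 fold change was 0.97, and none was called by edgeR. Without *Mkx*-/- replicate 1, 8 of them were called higher, among 282 of the 14993 genes tested in that fit. *Sox10*, the transcription factor gene of neural crest derivatives, was at 22.1, 30.7 and 29.1 CPM in WT against 33.9, 61.5 and 77.3 CPM in *Mkx*-/- libraries. Counts of *Nes* per count of *Sox10* were 1.35, 1.27 and 1.42 in WT and 1.22, 1.16 and 1.07 in *Mkx*-/- libraries, so this ratio was lower in every *Mkx*-/- library, opposite to the level of *Nes*. Vessel genes were also highest in *Mkx*-/- replicate 3, the library with the most *Nes*. In *Mkx*-/- replicates 1, 2 and 3 the endothelial sum was 156, 172 and 238 CPM. The pericyte and smooth muscle sum was 163, 165 and 950 CPM. The part of Schwann cells or of vessel cells in the *Nes* values was not tested. Myogenic and satellite cell genes, another known place of nestin, were not tested because no count of any of them exceeded 13.

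Among other filament genes, *Synm* was the only one to pass. *Vim*, encoding vimentin, the main intermediate filament of fibroblasts, differed by 0.26 on the log2 scale (adjusted p = 0.369 by edgeR). *Synm*, encoding synemin, an intermediate filament protein of muscle and other cells, was called lower at -1.05 (edgeR adjusted p = 0.00416), with 59.3 to 76.7 CPM in WT against 32.2 to 34.1 CPM in *Mkx*-/- libraries. *Des*, the desmin gene of muscle cells, was at 0.88 to 9.14 CPM in WT against 15.9 to 52.9 CPM in *Mkx*-/- libraries (log2 fold change 2.59, adjusted p = 0.0584 by edgeR). Over the 17 tested relatives of the markers, 11 were higher and 6 lower, with a median log2 fold change of 0.39, and *Ly6c1*, *Ly6e* and *Lgals9* rose while *Synm* fell.

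**Figure D2:**
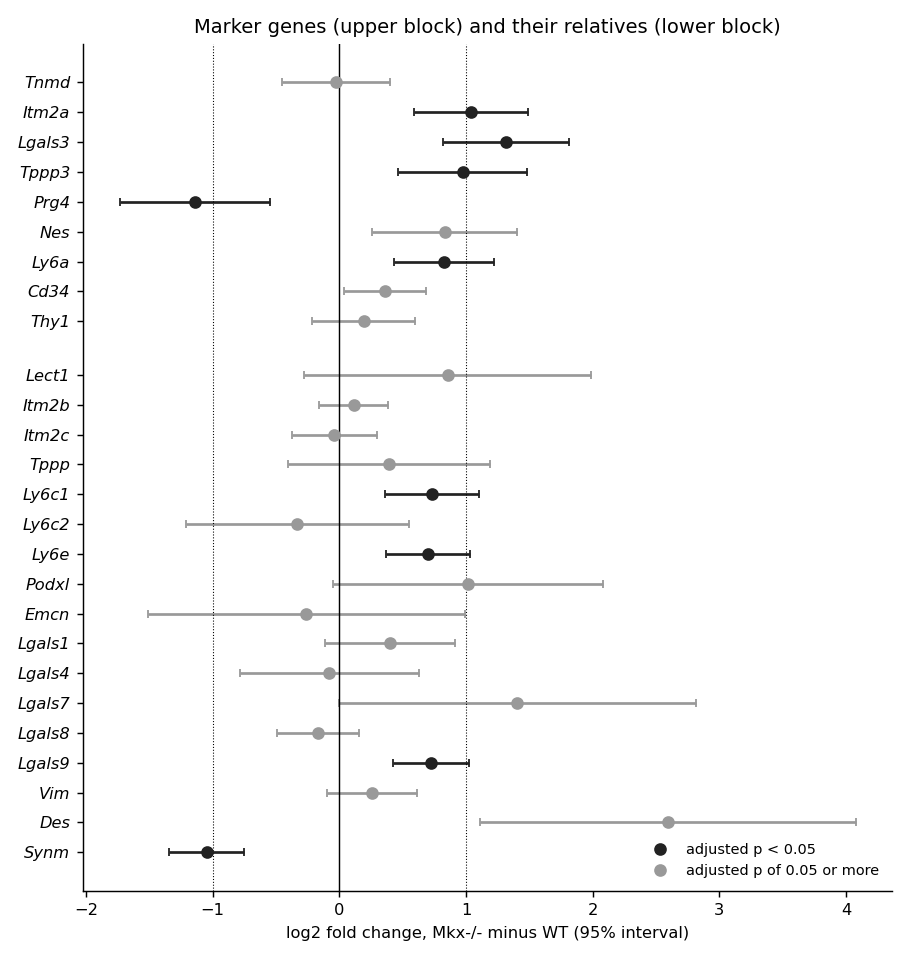
Log2 fold change between Mkx-/- and WT tendons (horizontal axis) with its unadjusted 95% interval from edgeR, for the 9 markers (upper block) and their 17 tested relatives (lower block), with dark points for an adjusted p under 0.05 and dotted lines at a log2 fold change of 1 and -1. Lgals3 (1.32) and Itm2a (1.04) lie beyond the upper line and Prg4 (-1.14) beyond the lower, and among relatives Synm alone passes with a lower level (-1.05).

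Other surface genes of progenitors and fibroblasts, listed by their use in the field, gave a wider base for the 9. Of 18 tested, 14 were higher and 4 lower, and the median log2 fold change was 0.50. *Cd44* (1.47), which is on the sheath list too, and *Nt5e*, encoding the CD73 ectonucleotidase (1.86), were called higher, and *Alcam*, encoding the adhesion molecule CD166 (-2.78), and *Lepr*, the leptin receptor gene that marks perivascular stromal cells (-2.74), were called lower. *Nt5e* was at 136, 87.0 and 82.5 CPM in WT against 422, 414 and 270 CPM in *Mkx*-/- libraries. *Alcam* was at 15.0, 21.9 and 25.2 CPM in WT against 4.40, 1.90 and 2.85 CPM in *Mkx*-/- libraries. Both directions therefore occurred among surface genes used for the same purpose. The platelet-derived growth factor receptor genes *Pdgfra* and *Pdgfrb*, broad fibroblast and mural cell markers, differed by 0.088 and -0.034 on the log2 scale, with adjusted p of 0.841 and 0.956 by edgeR.

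To set the markers against each other, levels were divided by the length of the exons of each gene. *Tnmd* was the highest in WT, at 800 ± 110 CPM per kilobase (SD, n = 3), and *Prg4* followed at 294 ± 39.1. *Thy1* (178), *Ly6a* (129), *Tppp3* (81.7) and *Cd34* (67.3 CPM per kilobase) formed a middle range in which each neighbour overlapped the next. *Itm2a* (32.6), *Lgals3* (18.5) and *Nes* (5.72 CPM per kilobase) came last, each below the one before in every library pair.

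In *Mkx*-/- tendons *Tnmd* was again the highest at 787 ± 153 CPM per kilobase (SD, n = 3). *Prg4*, at 133 ± 50.8, went from rank 2 to rank 5, below *Ly6a* (230), *Thy1* (203) and *Tppp3* (160 CPM per kilobase). *Ly6a* overlapped *Thy1*, *Tppp3* overlapped *Prg4*, and *Itm2a* (67.0) overlapped *Lgals3* (46.0 CPM per kilobase), while *Cd34* (86.3) and *Nes* (10.2 CPM per kilobase) stood clear of their neighbours. *Ly6a* moved from rank 4 to rank 2, and *Tnmd*, *Thy1*, *Cd34*, *Itm2a*, *Lgals3* and *Nes* held their ranks.

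**Figure D3:**
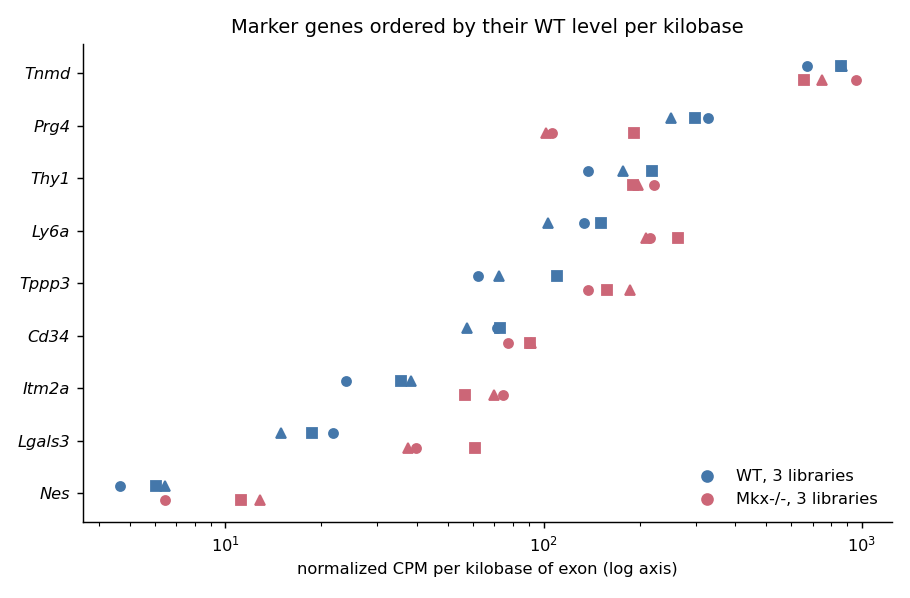
Normalized CPM per kilobase of exon (horizontal log axis) of the 9 genes, ordered by their WT level, with 1 point for each of 3 WT and 3 Mkx-/- libraries. Tnmd is highest in both groups (800 and 787 CPM per kilobase on average), and Prg4 moves from 294 to 133, into the range of Tppp3.

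Genes with the most similar profile were found among 10294 other genes whose mean reached 5 CPM, by the root mean square difference of log2 CPM over the 6 libraries after each gene was centred on its own mean. This measure uses the genotype difference as well as the spread within groups and says nothing of shared function. The nearest to *Nes* was *Sh3tc2*, a gene of Schwann cells, at 0.030, followed by *Cadm4* (0.044), an adhesion gene of Schwann cells, and *Col23a1* (0.048), where the median gene was at 0.55. The nearest to *Tppp3* were *Emilin2* (0.12), *Cd248* (0.13), which encodes the stromal surface protein endosialin, and *Rhpn1* (0.14). *Ecm1*, *Galnt16* and *Duoxa1* were nearest to *Ly6a*, at 0.077 to 0.087. *Lgals3* had *Tmem100* (0.12), *Anxa8* (0.12) and *Gem* (0.14), and *Itm2a* had *Gpr64*, *Gm5763* and *Pdk3* at 0.078 to 0.090. *Prg4* had *Klhdc7a*, *Dclk2* and *Ms4a6b* at 0.12 to 0.16, and *Tnmd*, *Cd34* and *Thy1*, which did not pass the test, were nearest to *Lca5*, *Adamts7* and *Sepn1* at 0.035, 0.036 and 0.032. Between markers, *Tnmd* and *Thy1* were the closest pair at 0.19 and *Prg4* and *Lgals3* the farthest apart at 1.24.

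**Figure D4:**
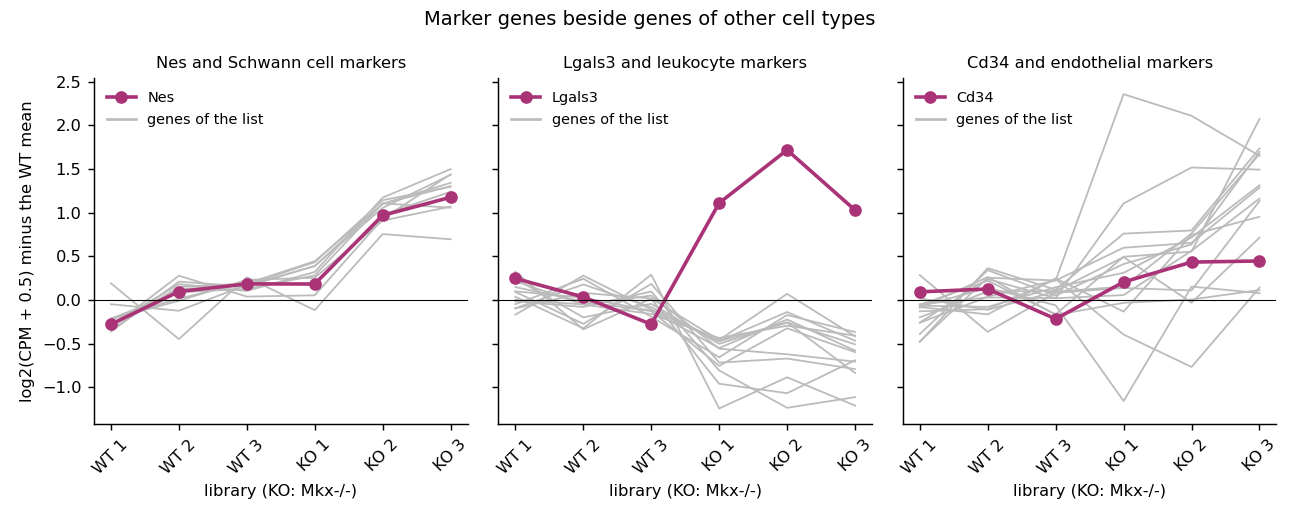
Log2(CPM + 0.5) relative to the WT mean (vertical axis) in each of the 6 libraries for Nes with 10 Schwann cell genes, Lgals3 with 13 macrophage and leukocyte genes and Cd34 with 15 endothelial genes (grey lines). Lines join the values of 1 gene, the libraries having no order, and Lgals3 lies above 0 in the Mkx-/- libraries while all 13 leukocyte genes have a lower fitted level there.

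Ratios of counts within a library need no scaling between libraries. For *Itm2a* per count of *Tnmd*, both X-linked, the ratio was 0.0458, 0.0534 and 0.0569 in WT and 0.101, 0.111 and 0.120 in *Mkx*-/- libraries, 2.13 times higher on average. *Tppp3* per count of *Tnmd* was 0.0698, 0.0969 and 0.0633 in WT and 0.109, 0.182 and 0.187 in *Mkx*-/- libraries. *Ly6a* per count of *Tnmd* was 0.120, 0.106 and 0.0719 in WT and 0.137, 0.244 and 0.169 in *Mkx*-/- libraries. In these 3 ratios no *Mkx*-/- library reached down to the WT range. *Thy1* per count of *Tnmd*, at 0.263 to 0.325 in WT and 0.298 to 0.374 in *Mkx*-/- libraries, overlapped. *Prg4* per count of *Tnmd* also overlapped, at 1.55, 1.10 and 0.920 in WT and 0.351, 0.925 and 0.428 in *Mkx*-/- libraries, with *Mkx*-/- replicate 2 just above the lowest WT library.

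**Figure D5:**
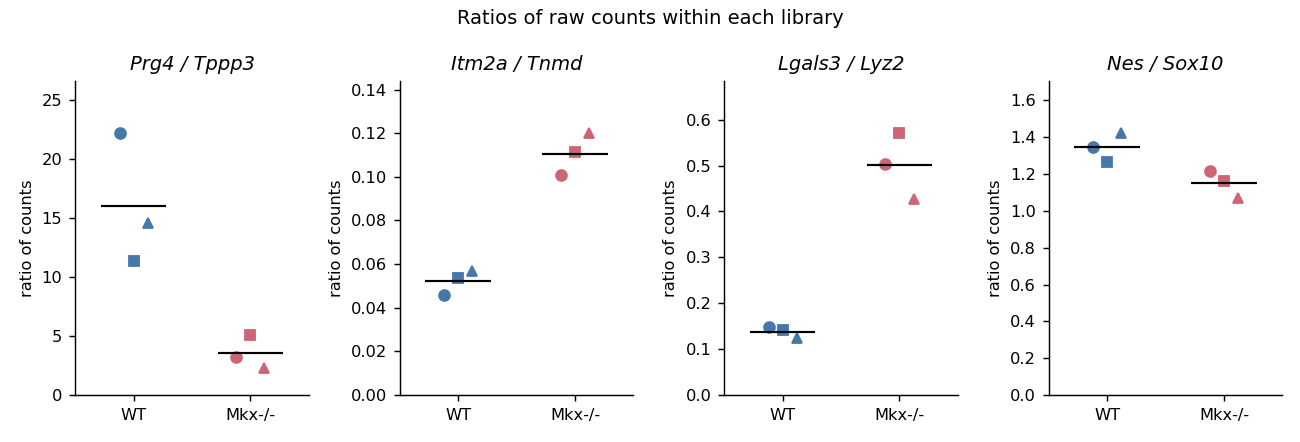
Ratios of raw counts within each library (vertical axes, from 0) for Prg4 to Tppp3, Itm2a to Tnmd, Lgals3 to Lyz2 and Nes to Sox10, with circles, squares and triangles for replicates 1, 2 and 3 and a line at each group mean. The groups are apart in all 4 ratios, lower in Mkx-/- for Prg4 to Tppp3 (means 16.0 in WT and 3.53 in Mkx-/-) and for Nes to Sox10 (means 1.35 and 1.15), and higher in the other two.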

How the data were processed

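Tail tendon RNA of the 3 WT and 3 *Mkx*-/- libraries was sequenced on the Ion Proton system. The authors removed adaptors and low-quality reads, aligned to mm9 with MapSplice and deposited raw counts per gene symbol. The counting program, its annotation and its use of strand are not given in the sources used here. Of 44788 symbols 19011 had 0 counts throughout, and 0 columns stayed unmatched to a sample.

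The deposited counts were analysed with edgeR 4.0.16 in R 4.3.3 (TMM, filterByExpr, quasi-likelihood fit on genotype, robust = FALSE, prior count 0.125, Benjamini-Hochberg adjustment over 14550 genes). The biological coefficient of variation was 0.196, and the fit was tested on simulated data. Standard errors were the log2 fold change over the square root of F. Genes were called at an adjusted p under 0.05 with a log2 fold change beyond 1, as in the study. An exact two-sided permutation p cannot go below 0.1 with 3 against 3 libraries, so p-values of the model are given. Replicate libraries differed by a chi-square per degree of freedom of 8.22 to 40.1, so none repeated another.

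Lengths and coordinates are from GENCODE vM1 (mm9). The rule for named genes was the 9 markers, *Mkx*, called genes and the 3 most abundant of each list, tested relatives, and the 3 nearest profiles of each marker. Genes outside this rule were named with their values in view, and a result withheld for evaluation is not reported here. The markers and lists were chosen with earlier results of these data known. Alternatives were DESeq2 1.42.0, RLE, upper-quartile and library-size scaling, a filter of 1 count in any library or of 10 counts in all, a robust fit, a fit without skeletal muscle genes, a block for the replicate number, and the omission of each library. Lists were rerun with DESeq2, the filter of 10 counts and each omission.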

Additional observations from a re-analysis of the deposited data

How the results depend on the processing

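All values here are log2 fold changes unless named as counts. Under the 9 settings that kept all 6 libraries, the adjusted p of *Lgals3* and *Ly6a* stayed under 0.05, and that of *Cd34*, *Thy1* and *Tnmd* stayed above it. With scaling by library size only, *Tnmd* was 0.23, *Prg4* -0.89 and *Nes* 1.12 (edgeR adjusted p = 0.0339), and 5 markers were called higher and 0 lower. Over all genes that scaling moved the calls from 275 to 711 higher and from 193 to 154 lower, and the median to 0.25. *Nes* also passed with DESeq2 (0.82) and with the filter of 1 count in any library (0.84, adjusted p = 0.0130).

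The replicate block gave 1.01 for *Tppp3*, -1.20 for *Prg4* and 1.06 for *Itm2a*, none with an adjusted p under 0.05 (edgeR adjusted p = 0.0556, 0.0563 and 0.0598). With the block 1 marker was called higher, 0 lower and 2 had an adjusted p under 0.05. Over all genes the block moved the calls from 275 to 195 higher and from 193 to 136 lower. The genes with an adjusted p under 0.05 at any fold went from 792 to 434. Deviations of same-numbered libraries from their group means correlated at 0.033, -0.28 and 0.37, and not every library correlated best with its own number. With 3 libraries per group these deviations depend on each other, so the correlations cannot decide whether the numbers pair the libraries.

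Leaving out 1 library at a time gave -0.21 to 0.092 for *Tnmd*, with 0.017, 0.019, 0.092 and 0.0083 turning its sign, 0.81 to 1.24 for *Tppp3*, -1.50 to -0.98 for *Prg4*, 0.67 to 0.94 for *Ly6a*, 0.62 to 1.05 for *Nes*, 0.86 to 1.15 for *Itm2a*, 1.07 to 1.45 for *Lgals3*, 0.24 to 0.41 for *Cd34* and 0.035 to 0.35 for *Thy1*. The markers called higher numbered 0 to 2 and those called lower 0 to 1. Those with an adjusted p under 0.05 by edgeR numbered 0 without WT replicate 3 and 1 to 3 without any other library. Only the fit without WT replicate 3 held libraries that were all female by their counts. Over all genes 244 to 978 had an adjusted p under 0.05 in these fits, which rest on 5 libraries. Of all genes 103 to 321 were called higher and 112 to 248 lower in them. The cause of the other changes was not tested.

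Called genes moved in some lists: DESeq2 called 2 tenocyte genes higher and 4 lower, 6 endothelial, 8 skeletal muscle, 1 smooth muscle and 1 Schwann cell gene higher, where edgeR called 1, 1, 2, 3, 0 and 0. Over all genes DESeq2 called 384 higher and 278 lower, against 275 and 193 in edgeR. With the filter of 10 counts 1 sheath gene was called higher in place of 2. With 1 library left out, 0 to 12 skeletal muscle and 0 to 8 Schwann cell genes were called higher.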
